A study of Mus musculus with 67 samples.

Results

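The C/EBP transcription factor family was followed through 3 expression tables of mouse monocytes and their bone marrow progenitors. Its members were taken by gene symbol, and the 7 symbols Cebpa, Cebpb, Cebpd, Cebpe, Cebpg, Cebpz and Ddit3 were each found once among the 24421 genes of every table. All 7 passed the filter on low values in each table.

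C/EBP proteins are basic leucine zipper (bZIP) transcription factors, which bind DNA as dimers with each other or with other bZIP proteins. In blood formation C/EBPα is needed for the step to granulocyte and monocyte progenitors, C/EBPε acts late in granulocyte maturation, and C/EBPβ and C/EBPδ are induced by cytokines and inflammation and act in myeloid cells. C/EBPγ and CHOP, the product of Ddit3, are partners that mostly restrain the others, CHOP being induced by stress of the endoplasmic reticulum. Cebpz carries the family's name because its human product was described as binding CCAAT boxes, but it has no bZIP domain and is related to a yeast ribosome assembly factor.

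The ko and wt libraries came from blood monocytes of 16-week mice of mixed background, sorted as Ly6C+ and Ly6Cint cells from ko mice and as Ly6C+, Ly6Cint and Ly6C- cells from wt mice, with 2 libraries per group. Ly6C is the surface antigen that separates classical (Ly6C+) from patrolling (Ly6C-) monocytes in the mouse, and Ly6Cint cells lie between them. The sample labels do not name the gene removed in ko mice, which is taken from the series title to be Cebpb, and ko Ly6C- monocytes were not analysed here. The same table held MDP, cMoP and Ly6C+ monocytes from the marrow of 8-week C57BL/6 mice (n = 2 each). MDP, in the usual nomenclature, are monocyte and dendritic cell progenitors and cMoP are common monocyte progenitors. A second table covered 7-week C57BL/6 mice, with marrow MDP, cMoP and Ly6C- monocytes and blood Ly6C+ monocytes (n = 4 each) and marrow Ly6C+, blood Ly6Cint and blood Ly6C- monocytes (n = 3 each). The third table, from 8-week C57BL/6 mice, followed transferred cells taken back from the blood and spleen of recipients at 24, 36 and 48 h, beside marrow Ly6C+ monocytes sampled before transfer and the recipients' own Ly6C+, Ly6Cint and Ly6C- monocytes from both tissues at 24 h (n = 2 each). Sample titles of the recipients' own monocytes name Gr1 (P, INT and M) and not Ly6C. They are called Ly6C+, Ly6Cint and Ly6C- here, and whether they match the Ly6C sorts of the other tables was not tested. Cells in the first 2 tables were enriched for CD115, the receptor encoded by Csf1r, before sorting. In the transfer table blood was prepared by ficoll and spleen by ACK lysis of red cells, so tissue and preparation cannot be told apart there. Nothing in the labels says whether libraries of a group came from separate mice, so the p-values measure the spread between these libraries, which may be technical.

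Levels are given as RPM, reads scaled to a library total of 1000000. Recovered reads on the listed genes ranged from 577690 to 3643327 per library in the 7-week table and from 942751 to 5478761 in the knockout table, while the depth of the transfer libraries could only be estimated, at 504901 to 3026497 reads, from the steps between low values that are rounded, and was highest in the libraries before transfer. Differences are log2 ratios of RPM plus 1 with their standard error (SE), from limma fits over all libraries of a table, and a gene was called at a Benjamini-Hochberg adjusted p under 0.05 over all genes tested. With 2 libraries per group these fits take most of their error from the other groups of the table. Monocyte markers summed to at least 3874 RPM in each of the monocyte libraries of the knockout table. In marrow progenitors the 8-week table differed from the 7-week table, since neutrophil markers (15 genes) summed to 3801 to 4712 RPM in the 8-week MDP libraries and to 91.7 to 148 RPM in the 7-week ones. Reads were counted by gene with no strand setting given in the sources used here, so reads of Tmem189, Spidr, Cebpzos and Mars, which overlap Cebpb, Cebpd, Cebpz and Ddit3 on the opposite strand, cannot be told apart from theirs, and the same holds for noncoding genes annotated over Cebpa, Cebpg and Ddit3.

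The first question was how the family stood in ko monocytes. Cebpb itself had 115 and 57.2 RPM in ko Ly6C+ monocytes, against 804 and 693 RPM in wt Ly6C+ monocytes. In Ly6Cint monocytes it had 186 and 67.1 RPM in ko libraries, against 1734 and 1242 RPM in wt libraries. The ko libraries were below the wt libraries in both sorts, at 11.5% of the wt mean in Ly6C+ and 8.5% in Ly6Cint cells. These differences were -3.19 ± 0.38 (SE, limma adjusted p = 0.000551) and -3.70 ± 0.38 (adjusted p = 4.82e-05). Reads assigned to Cebpb thus remained in the ko libraries, and where on the gene they fell was not tested.

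Cebpa, the factor of the step to granulocyte and monocyte progenitors, was higher in ko monocytes. It had 192 and 207 RPM in ko Ly6C+ monocytes, against 110 and 88.2 RPM in wt Ly6C+ monocytes. In Ly6Cint monocytes it had 173 and 205 RPM in ko libraries, against 75.7 and 53.7 RPM in wt libraries. Neither sort showed any overlap between genotypes. The ko mean was 2.92-fold the wt mean in Ly6Cint cells (1.55 ± 0.23 on the log2 scale, limma adjusted p = 0.000976), a call that was kept with each library left out in turn. In Ly6C+ cells it was 2.02-fold (1.01 ± 0.23, adjusted p = 0.0482), but that call was lost under each of the 7 other settings tried and with each of the 4 libraries left out, at adjusted p from 0.0514 to 0.482. In bulk libraries, more cells of a type and more RNA per cell cannot be told apart, here and for every difference that follows.

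Cebpe, which in mouse granulocytes drives the late granule genes, had the largest rise of the family in both sorts. It had 44.4 and 44.2 RPM in ko Ly6C+ monocytes, against 7.49 and 9.43 RPM in wt Ly6C+ monocytes. In Ly6Cint monocytes it had 20.7 and 34.1 RPM in ko libraries, against 7.46 and 6.81 RPM in wt libraries. The ko values lay above all wt values in each sort and within the range of the 8-week marrow Ly6C+ monocytes of the same table (23.9 and 49.1 RPM) for 3 of the 4 ko libraries. The ko mean was 5.23-fold the wt mean in Ly6C+ (2.27 ± 0.36, limma adjusted p = 0.00471) and 3.84-fold in Ly6Cint cells (1.76 ± 0.36, adjusted p = 0.00788). The Ly6C+ call was lost without wt replicate 1 or ko replicate 2, and the Ly6Cint call without ko replicate 2.

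The other 4 members passed no test between genotypes. Cebpg, a partner without an activation domain, had 226 and 214 RPM in ko Ly6C+ and 207 and 232 RPM in ko Ly6Cint monocytes, against 209 and 128 RPM in wt Ly6C+ and 165 and 152 RPM in wt Ly6Cint monocytes. Its ko values were above the wt values in both sorts, with differences of 0.43 ± 0.22 and 0.47 ± 0.22 (limma adjusted p = 0.591 and 0.277). Cebpd, the other cytokine-induced member, had differences of -0.27 ± 0.23 in Ly6C+ and -0.30 ± 0.23 in Ly6Cint cells (adjusted p = 0.841 and 0.551), with overlapping libraries. Cebpz differed by -0.18 ± 0.22 and 0.36 ± 0.22 (adjusted p = 0.952 and 0.45). Ddit3 differed by -0.02 ± 0.25 and -0.18 ± 0.25 (adjusted p = 1 and 0.785). Thus 3 of 7 members were called in Ly6C+ cells, where 1.26% of all genes were, and 3 of 7 in Ly6Cint cells, where 6.33% of all genes were, and Cebpb is the gene removed. When each genotype pair was fitted without the other groups, Cebpa, Cebpb and Cebpe all missed the threshold in both sorts, Cebpb at adjusted p = 0.164 and 0.173, with the same fitted differences.

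**Figure D1:**
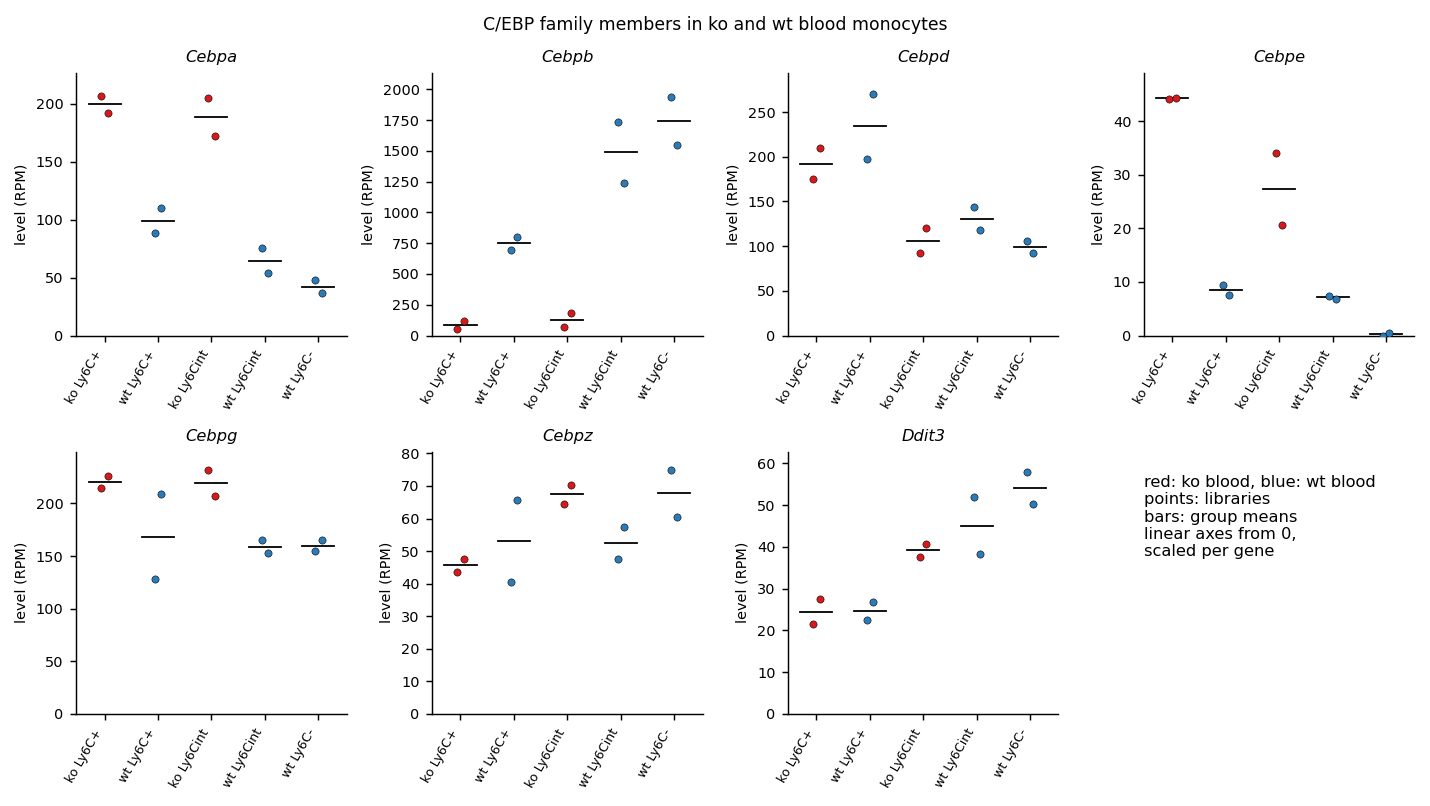
Level of each family member in RPM on linear axes for the ko and wt blood monocyte libraries, with points for libraries and bars for group means (n = 2). Cebpb stands below 190 RPM in the 4 ko libraries and above 690 RPM in the 6 wt libraries, while Cebpa and Cebpe lie above their wt counterparts in both sorts.

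**Figure D2:**
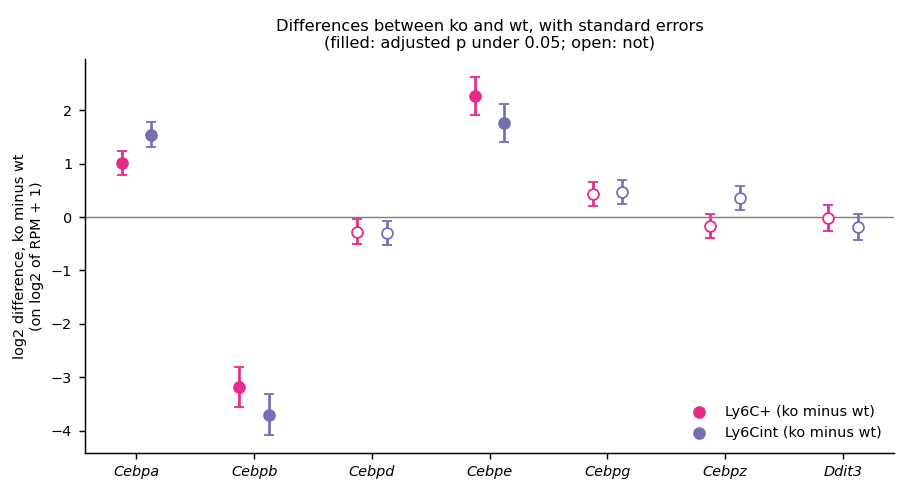
Fitted log2 difference of each member, ko minus wt, with its standard error in Ly6C+ and Ly6Cint blood monocytes. Filled points passed an adjusted p under 0.05 and open points did not. Cebpb lies at -3.19 and -3.70, Cebpe and Cebpa lie above 0 in both sorts, and the call of Cebpa in Ly6C+ cells was lost under every other setting.

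The change between the sorts was also compared by genotype. Cebpa differed by -0.09 ± 0.23 between Ly6Cint and Ly6C+ monocytes in ko mice and by -0.62 ± 0.23 in wt mice (limma adjusted p = 0.944 and 0.181). The test of that contrast between genotypes gave 0.53 ± 0.33 for Cebpa (adjusted p = 0.929). Limma called 0 of 7 members in it, where 0.00878% of all genes were called, with 0 at an unadjusted p under 0.05 and 0 in edgeR. A difference between the sorts in the effect of genotype was thus not shown for any member.

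Markers of other cells were read beside these rises. The summed neutrophil markers stood at 146 to 188 RPM in ko and 220 to 235 RPM in wt Ly6C+ libraries, and at 51.2 to 85.1 RPM in ko and 97.2 to 122 RPM in wt Ly6Cint libraries. These sums were lower in ko than in wt libraries of both sorts. Progenitor markers (7 genes) summed to 19.6 to 20.1 RPM in ko and 14.9 to 20.1 RPM in wt Ly6C+ libraries. In Ly6Cint libraries they summed to 26.9 to 27.9 RPM in ko and 9.46 to 20.9 RPM in wt, and Kit and Gata2 were at 0 in all 4 ko libraries. B cell markers (10 genes) summed to 37.0 to 39.1 RPM in ko and 23.1 to 28.3 RPM in wt Ly6C+ libraries, and to 34.5 to 44.8 RPM in ko and 17.6 to 18.2 RPM in wt Ly6Cint libraries. They were higher in ko libraries without overlap, with Ms4a1 and Pax5 at 0 in all 4. Platelet markers (8 genes) summed to 2.60 to 4.30 RPM in ko and 0.608 to 2.63 RPM in wt libraries of both sorts. The part of these cells in the differences was not tested. Ly6c1, a gene of the Ly6C locus, averaged 600.1 RPM in ko and 23.8 RPM in wt Ly6C+ monocytes (4.63 ± 0.62, limma adjusted p = 0.00132). Other loci of the mixed background and the loss of Cebpb cannot be told apart.

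Promoter sequences from RefSeq (GRCm38.p6) were available for Cebpa, Cebpb, Cebpg and Ddit3. The 250 bases before the annotated start are printed for Cebpb, the member removed, and for Cebpa, one of the 2 members called higher in ko cells. Capitals mark matches to TTGCG, the core of a C/EBP site, or to TGACG, the core of a cyclic AMP response element, on either strand.
Cebpa promoter, chr7:35119043-35119292, plus strand: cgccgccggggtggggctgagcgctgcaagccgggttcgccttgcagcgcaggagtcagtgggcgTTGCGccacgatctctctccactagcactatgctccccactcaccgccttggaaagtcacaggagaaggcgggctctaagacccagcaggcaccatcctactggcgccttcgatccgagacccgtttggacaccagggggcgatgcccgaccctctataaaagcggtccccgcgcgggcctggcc
Cebpb promoter, chr2:167688665-167688914, plus strand: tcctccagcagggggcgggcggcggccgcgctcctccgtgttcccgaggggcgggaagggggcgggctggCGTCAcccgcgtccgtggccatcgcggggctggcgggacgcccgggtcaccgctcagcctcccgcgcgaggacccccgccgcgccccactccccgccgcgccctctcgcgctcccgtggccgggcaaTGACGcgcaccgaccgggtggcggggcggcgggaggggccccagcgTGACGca
The Cebpa window held 1 C/EBP core, 185 bases before the start, and 14.5% of 32851 mouse promoter windows of this length held at least 1. Mouse Cebpa is known to be regulated by C/EBP proteins through its own proximal promoter. The Cebpb window held 3 cores of the cyclic AMP response element, at 180, 53 and 7 bases before the start, a motif present in 17.8% of windows, and no C/EBP core. The full element TGACGTCA was in 1.55% of windows and in none of the 4. The full C/EBP palindrome TTGCNNAA, found in 9.56% of windows, was in none of the 4. The windows of Cebpg and Ddit3 held the CCAAT box, with 2 matches and 1 match, as did 33.9% of all windows. Matches of this kind are letters in a window and were not tested for binding.

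Other genes of the C/EBP network were taken from lists that grouped bZIP partners, upstream regulators, targets and stress genes. In ko against wt Ly6C+ monocytes few of them moved, where 1.26% of all genes were called. Of 13 granule and granulocyte targets tested, 1 rose and 1 fell, with a list median of 0.13 against 0.02 for all genes. Prtn3, a primary granule protease, averaged 81.3 RPM in ko and 24.6 RPM in wt libraries (1.65 ± 0.33, limma adjusted p = 0.0237), and Chil3, a chitinase-like protein of myeloid cells, 53.7 RPM in ko and 874 RPM in wt libraries (-3.70 ± 0.84, adjusted p = 0.0468). Of 19 inflammatory and macrophage targets tested, 1 fell and none rose, the acute phase gene Saa3 (1.63 RPM in ko and 26.2 RPM in wt libraries). Limma and edgeR called 0 of 22 bZIP partners, 0 of 18 regulators, 0 of 23 stress genes and 0 of 17 ribosome assembly genes. At an unadjusted p under 0.05 there were 5, 3, 5 and 1 of them in limma, with no share of all genes taken at that threshold.

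In Ly6Cint monocytes 6.33% of all genes were called between ko and wt cells, and 1.26% in Ly6C+ monocytes. The contrast of the change between the sorts in ko with that in wt called no gene of any list in limma or edgeR, so a difference between the sorts was not shown for the lists. Its unadjusted p was under 0.05 for 7 of the 19 inflammatory and macrophage targets, for 5 of the 13 monocyte markers, and for 0 to 2 genes of each of the other lists. The share of all genes at that unadjusted p was not taken, so no excess is read from these counts. Of these 19 targets 4 fell and 1 rose in ko Ly6Cint monocytes in limma (list median 0.15, all genes 0.07), and 6 fell and 0 rose in edgeR. Hp, an acute phase plasma protein, averaged 159 RPM in ko and 585 RPM in wt libraries (-1.88 ± 0.17, limma adjusted p = 2.34e-05). Nr4a1, an orphan nuclear receptor on which patrolling monocytes depend, averaged 446 RPM in ko and 1569 RPM in wt libraries (-1.83 ± 0.26, adjusted p = 0.000765). Csf1r, the receptor for the monocyte growth factor, averaged 949 RPM in ko and 2128 RPM in wt libraries (-1.13 ± 0.22, adjusted p = 0.0055). Chil3 was again lower (10.8 RPM in ko and 186 RPM in wt libraries) and Prtn3 again higher (9.85 RPM in ko and 1.45 RPM in wt libraries). With Csf3r, the granulocyte growth factor receptor, they made 2 falls and 1 rise among the 13 granule and granulocyte targets.

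Among bZIP partners 3 of 22 rose in ko Ly6Cint monocytes and none fell, where 6.33% of all genes were called (list median 0.46, all genes 0.07). EdgeR called 3 higher and 3 lower. The 3 in limma were Batf3 (229 RPM in ko and 56.0 RPM in wt libraries), the macrophage factor Maf (27.3 RPM in ko and 5.26 RPM in wt libraries) and Fosb (18.8 RPM in ko and 3.43 RPM in wt libraries), at adjusted p from 0.00394 to 0.0133 by limma. Among stress genes 3 of 23 rose and none fell (list median 0.46; in edgeR 4 rose and 1 fell), namely Psat1 and Shmt2 of serine metabolism and Hspa5, the chaperone BiP. Ddit3, whose product acts in the same response, had 40.7 and 37.6 RPM in ko and 52.0 and 38.2 RPM in wt Ly6Cint libraries and did not pass. Of 18 regulators, 2 rose and 3 fell, Id1, an inhibitor of differentiation factors, averaging 7.39 RPM in ko and 40.3 RPM in wt libraries. Of the 17 ribosome assembly genes 1 rose and 1 fell. Markers of the monocytes themselves moved too, with 7 of 13 lower and 1 higher in ko Ly6Cint libraries, and their sum was 3874 to 4298 RPM in ko and 8997 to 10560 RPM in wt libraries. The part of this difference between the sorted cells in the list counts was not tested.

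The second question was how the members change as monocytes form, for which the 7-week table has the most libraries. Group means of Cebpa spanned 3.69-fold, highest in blood Ly6C+ and lowest in marrow Ly6C- monocytes. In order from MDP, it had 19.7 to 32.1 RPM in MDP, 35.9 to 63.8 RPM in cMoP, and 34.7, 34.7 and 40.6 RPM in marrow Ly6C+ monocytes. Blood Ly6C+ monocytes split into 110 and 76.9 RPM in replicates 3 and 4 and 29.2 and 32.9 RPM in replicates 2 and 1. Blood Ly6Cint cells had 39.7, 14.2 and 23.4 RPM, blood Ly6C- cells 33.4, 20.6 and 8.69 RPM, and marrow Ly6C- cells 13.5, 16.3, 22.2 and 15.4 RPM. Each group overlapped its neighbour in the order of means. Cebpa was lower in Ly6C- than in Ly6C+ monocytes of blood (-1.50 ± 0.39, limma adjusted p = 0.00597) and of marrow (-1.09 ± 0.39, adjusted p = 0.0249). In blood that call was lost without Ly6C- replicate 1 and in the fit of the compared groups alone. In marrow it was lost in 3 rescaled fits, at -0.78 at the weakest, and without any 1 of the 3 Ly6C+ libraries or Ly6C- replicate 3.

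Cebpe was highest in cMoP and nearly silent at the end of the path. It had 4.28, 4.64, 5.14 and 1.58 RPM in MDP and 48.8, 36.8, 44.0 and 36.8 RPM in cMoP, with no overlap. Marrow Ly6C+ monocytes had 34.7, 39.1 and 14.7 RPM, blood Ly6C+ monocytes 12.3, 9.22, 5.16 and 8.60 RPM and blood Ly6Cint cells 0.696, 2.02 and 4.17 RPM. Blood Ly6C- cells had 1.33, 0.643 and 0 RPM and marrow Ly6C- cells 0.586, 2.61, 0 and 0.995 RPM. It rose in cMoP against MDP (3.18 ± 0.41, limma adjusted p = 1.42e-06). It fell in blood against marrow Ly6C+ monocytes (-1.57 ± 0.44, adjusted p = 0.00867), in Ly6C- against Ly6C+ monocytes of blood (-2.60 ± 0.44, adjusted p = 6.51e-05) and in those of marrow (-3.94 ± 0.44, adjusted p = 2.74e-08). The fall between marrow and blood Ly6C+ cells was lost when 0.25 RPM was added before the log and without marrow replicate 3 or 4.

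Cebpb rose step by step to the marrow Ly6C+ stage. It had 37.7, 28.8, 27.6 and 38.8 RPM in MDP, 124, 127, 130 and 164 RPM in cMoP and 405, 483 and 341 RPM in marrow Ly6C+ monocytes, with no overlap between these stages. Marrow Ly6C- monocytes had 616, 784, 1023 and 848 RPM. Blood Ly6C+ monocytes had 896, 565, 649 and 450 RPM, blood Ly6Cint cells 389, 433 and 412 RPM and blood Ly6C- cells 1308, 1005 and 583 RPM. The group means spanned 29.1-fold, from MDP at the bottom to blood Ly6C- monocytes at the top. Between Ly6C- and Ly6C+ monocytes the gain was 0.99 ± 0.23 in marrow (limma adjusted p = 0.000785) and 0.56 ± 0.23 in blood, the blood value not passing (adjusted p = 0.0781) unless the libraries were rescaled (0.74, adjusted p = 0.011, after quantile normalization).

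Cebpd was higher at each step up to marrow Ly6C+ monocytes, as Cebpb was, and lower in Ly6Cint and Ly6C- than in Ly6C+ monocytes. It had 44.5 to 56.3 RPM in MDP, 139 to 175 RPM in cMoP and 249, 323 and 299.6 RPM in marrow Ly6C+ monocytes. Blood Ly6C+ monocytes had 185 to 301 RPM, while blood Ly6Cint cells had 89.1, 85.0 and 87.7 RPM and blood Ly6C- cells 101, 87.4 and 49.8 RPM. Marrow Ly6C- cells had 74.4 to 111 RPM, so that no Ly6C- library of either tissue reached a Ly6C+ one. Cebpd fell in Ly6C- against Ly6C+ monocytes by 1.59 ± 0.20 in blood and by 1.53 ± 0.20 in marrow on the log2 scale (limma adjusted p = 7.78e-07 and 4.66e-07). In Ly6Cint against Ly6C+ blood monocytes it fell by 1.40 ± 0.20 (adjusted p = 1.32e-05). These calls held under every other setting and with each library left out.

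Cebpg, the short partner, was higher in marrow Ly6C+ monocytes (119.8, 107 and 149.8 RPM) than in cMoP (75.2, 91.0, 68.7 and 87.0 RPM), by 0.63 ± 0.18 (limma adjusted p = 0.00612, and 0.0602 without marrow Ly6C+ replicate 1). From there its 5 monocyte groups averaged between 104 and 130 RPM and overlapped their neighbours. Ddit3 was flat from MDP to marrow Ly6C+ monocytes, at means of 11.8, 12.3 and 12.9 RPM. It had 40.4, 35.9, 44.5 and 62.2 RPM in marrow Ly6C- monocytes, above the 14.6, 10.1 and 13.9 RPM of marrow Ly6C+ ones (1.74 ± 0.26, limma adjusted p = 2.64e-06). In blood it had 51.4, 33.4 and 42.9 RPM in Ly6C- and 22.9, 20.7, 35.7 and 15.2 RPM in Ly6C+ monocytes, which overlap (0.87 ± 0.26, limma adjusted p = 0.0157). That call was lost without Ly6C+ replicate 1 or Ly6C- replicate 3. Between Ly6C+ monocytes of blood and marrow Ddit3 rose by 0.78 ± 0.26 in blood (limma adjusted p = 0.0243), a call lost without blood or marrow replicate 4. Both blood calls of Ddit3 were also lost in the fit of the compared groups alone. The contrast of the blood with the marrow change from Ly6C+ to Ly6C- in Ddit3 was -0.87 ± 0.36 (adjusted p = 0.0957), which passed after quantile normalization (-1.29, adjusted p = 0.0144) and in edgeR. Limma called 0 of 7 members in that contrast, where 17.8% of all genes were called, and edgeR called 1. Cebpz was the steadiest member, spanning 1.81-fold between group means, highest in MDP (67.0 to 107 RPM) and lowest in blood Ly6C+ monocytes (37.9 to 62.2 RPM). No 7-week comparison called it in limma.

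**Figure D3:**
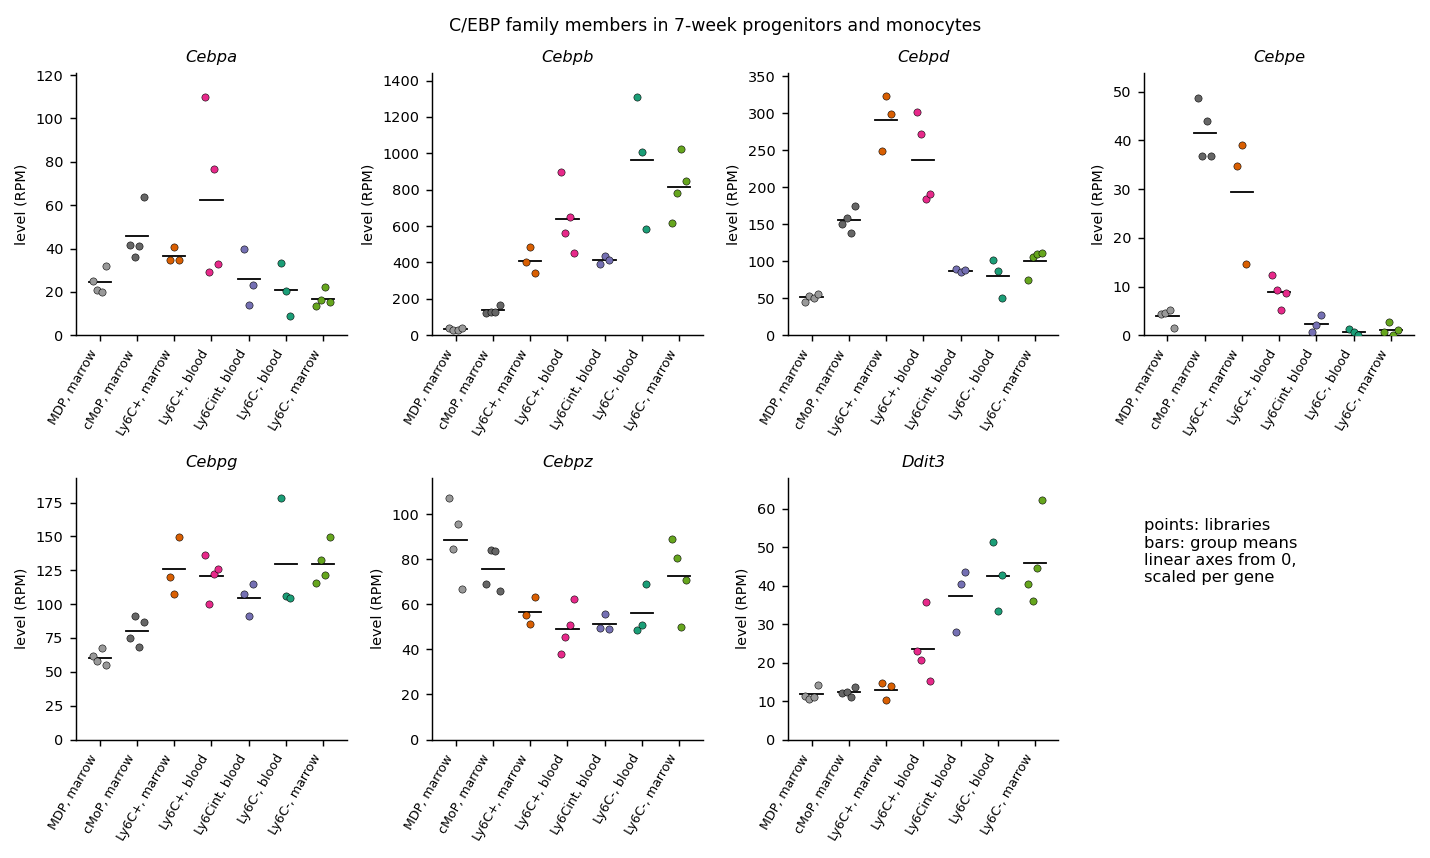
Level of each member in RPM on linear axes in the 25 libraries of the 7-week table, with points for libraries and bars for group means, from MDP through Ly6C+ to Ly6C- monocytes. Cebpb climbs from MDP and is highest in Ly6C- monocytes, Cebpd peaks in Ly6C+ monocytes, Cebpe in cMoP, and Ddit3 is highest in Ly6C- monocytes.

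Counted over the family, 3 of 7 members rose in cMoP against MDP, where 9.25% of all genes were called, and 3 of 7 rose in marrow Ly6C+ monocytes against cMoP, where 37.7% were. Between blood and marrow Ly6C+ monocytes 2 rose and 1 fell (26% of all genes called), the rise of Cebpb (0.61 ± 0.23, adjusted p = 0.0445) being lost under 4 of 7 other settings. In Ly6C- against Ly6C+ monocytes 1 rose and 3 fell in blood (20.3% of all genes) and 2 rose and 3 fell in marrow (40.1%). In blood Ly6Cint against Ly6C+ monocytes 1 rose and 4 fell (27.2%), but only Cebpd among them was called under every setting and with every library left out. Blood Ly6C- against Ly6Cint monocytes called Cebpb alone (1.15 ± 0.24, limma adjusted p = 0.00435, 8.87% of all genes). That call was lost without Ly6C- replicate 3 and in the fit of the compared groups alone. Meanwhile Ly6C- monocytes of blood against those of marrow called 0 of 7 in limma (2.54%), with 0 at an unadjusted p under 0.05 and 0 in edgeR. In marrow the median of all genes was -0.28 in Ly6C- against Ly6C+ monocytes, and quantile normalization moved it by 0.295. Relative to that median the differences were 1.27 for Cebpb, -1.26 for Cebpd, -3.66 for Cebpe, -0.82 for Cebpa and 2.02 for Ddit3, and no difference that passed in any comparison reversed under another setting. Red cell genes (10 genes) summed to 1224 to 3120 RPM in these Ly6C- libraries and 6.95 to 291 RPM in the Ly6C+ ones, B cell markers to 52.3 to 83.6 RPM in Ly6C- and 21.6 to 36.5 RPM in Ly6C+ libraries, and platelet markers to 4.98 to 14.5 RPM in Ly6C- and 0 to 1.82 RPM in Ly6C+ libraries. The part of these cells in the Ddit3 difference and the others was not tested.

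The 8-week marrow duplicates covered the same 3 stages in other libraries. Cebpb had 147 and 154 RPM in cMoP, against 42.1 and 53.5 RPM in MDP (1.64 ± 0.38, limma adjusted p = 0.0205), and 521 and 435 RPM in marrow Ly6C+ monocytes (1.66 ± 0.38 against cMoP, adjusted p = 0.0033). Cebpd had 215 and 167 RPM in cMoP, against 74.8 and 99.3 RPM in MDP (1.13 ± 0.23, adjusted p = 0.00858), and 323 and 263 RPM in marrow Ly6C+ monocytes (0.62 ± 0.23 against cMoP, adjusted p = 0.0441). Cebpg had 180 and 259 RPM in Ly6C+ monocytes, against 94.5 and 91.8 RPM in cMoP (1.20 ± 0.22, adjusted p = 0.000684). Cebpz fell in this pass, with 37.4 and 40.0 RPM in Ly6C+ monocytes, against 85.3 and 83.7 RPM in cMoP (-1.11 ± 0.22, adjusted p = 0.00146). Neutrophil markers summed to 641 to 688 RPM in these Ly6C+ and 3450 to 4219 RPM in these cMoP libraries, and red cell genes to 5004 to 6585 RPM in Ly6C+ and 437 to 826 RPM in cMoP libraries, whose part in the differences was not tested. That made 2 of 7 members called in cMoP against MDP (4.85% of all genes) and 4 of 7 in Ly6C+ monocytes against cMoP (36.8%). The first 2 calls were lost with some library left out, Cebpb without any 1 of the 4 and Cebpd without replicate 1 of MDP or of cMoP, while those of Cebpb, Cebpg and Cebpz at the second step held with each library left out. The second call of Cebpd was lost without cMoP replicate 2 or either Ly6C+ library. In the fit of the compared groups alone the first 2 calls and the second call of Cebpd were also lost.

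Cebpe differed between the tables at the MDP stage. The 8-week MDP libraries had 29.3 and 31.7 RPM, close to the 39.4 and 39.3 RPM of 8-week cMoP (difference of cMoP over MDP 0.36 ± 0.36, limma adjusted p = 0.668). In the 7-week table MDP had 1.58 to 5.14 RPM. The same 8-week MDP libraries carried the high neutrophil marker sums given above, and the 8-week cMoP libraries did too (3450 to 4219 RPM, against 97.1 to 134 RPM in 7-week cMoP). The part of neutrophil RNA in the Cebpe level was not tested, and age, sort and table cannot be told apart.

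Ribosome assembly genes were read beside Cebpz, which is related to that machinery. In marrow Ly6C+ monocytes against cMoP 16 of the 17 tested genes fell in the 7-week and 15 of 17 in the 8-week table (37.7% and 36.8% of all genes called), with list medians of -1.58 and -1.85 against -0.17 and -0.10 for all genes. Ncl, the nucleolar protein nucleolin, averaged 257 RPM in 7-week Ly6C+ monocytes and 878 RPM in cMoP (-1.76 ± 0.13, limma adjusted p = 6.92e-12). Cebpz differed less in the 7-week table, at 51.5 to 63.3 RPM in Ly6C+ monocytes against 66.04 to 84.0 RPM in cMoP (-0.41 ± 0.20, adjusted p = 0.115).

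The target lists were read against the shares of all genes called, which were 9.25% in cMoP against MDP, 37.7% in marrow Ly6C+ monocytes against cMoP and 40.1% in marrow Ly6C- against Ly6C+ monocytes. Of the 13 granule and granulocyte targets, 6 rose and none fell in 7-week cMoP against MDP (list median 1.25, all genes -0.01), among them the protease gene Elane (1293 RPM in cMoP and 67.3 RPM in MDP) and Ms4a3 (449.8 RPM in cMoP and 25.9 RPM in MDP). In marrow Ly6C- against Ly6C+ monocytes 8 of 13 fell and 1 rose (list median -3.61, all genes -0.28; in edgeR 8 fell and 3 rose), with Prtn3 at 29.0 RPM in Ly6C- and 782 RPM in Ly6C+ cells. Of 16 inflammatory and macrophage targets tested, 12 rose and none fell in marrow Ly6C+ monocytes against cMoP (list median 1.25, all genes -0.17), with lysozyme (Lyz2) at 3564 RPM in Ly6C+ monocytes and 174 RPM in cMoP. In marrow Ly6C- against Ly6C+ monocytes 5 of them rose and 5 fell in limma, and 5 rose and 4 fell in edgeR, the rises including the lipid receptor Cd36 (157 RPM in Ly6C- and 1.35 RPM in Ly6C+ cells) and Pparg (151 RPM in Ly6C- and 2.25 RPM in Ly6C+ cells). Among 23 stress genes, 4 rose and 10 fell in the same comparison in limma, in which Ddit3 rose, and 4 rose and 7 fell in edgeR. Psat1 averaged 3.79 RPM in Ly6C- and 74.4 RPM in Ly6C+ cells, and Ddit4 195 RPM in Ly6C- and 27.7 RPM in Ly6C+ cells.

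In the wt blood of the knockout table the family was compared along the same path. Cebpb had 804 and 693 RPM in Ly6C+, 1734 and 1242 RPM in Ly6Cint and 1936 and 1549 RPM in Ly6C- monocytes. Its Ly6Cint libraries were above its Ly6C+ ones (0.97 ± 0.38, limma adjusted p = 0.202), where in the 7-week table they were below (-0.59 ± 0.23, adjusted p = 0.0498, a call lost under all 7 other settings). The 2 tables differ in age, background and table, which cannot be told apart. In the transfer table the recipients' own blood monocytes had Cebpb at 2234 and 2646 RPM in Ly6Cint, against 928 and 1403 RPM in Ly6C+ cells. That is the direction of the wt mice. These libraries also differ from the 7-week ones in sort label, preparation and table, which cannot be told apart. The cause of the opposite direction in the 7-week table was not tested. For Cebpd, wt mice had 144 and 118 RPM in Ly6Cint, against 271 and 198 RPM in Ly6C+ monocytes. The difference was -0.83 ± 0.23 (limma adjusted p = 0.0549), in the direction of the 7-week table. Ddit3 had 52.0 and 38.2 RPM in Ly6Cint, against 26.9 and 22.5 RPM in Ly6C+ monocytes (0.83 ± 0.25, adjusted p = 0.0802, and 0.0237 in edgeR). Limma called 0 of 7 members in Ly6Cint against Ly6C+ monocytes of wt mice (4.29% of all genes), with 4 at an unadjusted p under 0.05, and edgeR called Ddit3. In ko mice it called 0 of 7 too (1.64% of all genes), with 3 at an unadjusted p under 0.05 and 0 in edgeR. In Ly6C- against Ly6Cint monocytes Cebpe alone was called (0.448% of all genes), at 0 and 0.514 RPM in Ly6C- and 7.46 and 6.81 RPM in Ly6Cint libraries. The difference was -2.72 ± 0.36 (limma adjusted p = 0.00356), a call lost without Ly6C- replicate 1 and in the fit of the compared groups alone.

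The transfer experiment asked what becomes of marrow Ly6C+ monocytes in a host. Within 24 h Cebpb had gone up in the grafts of both tissues. It had 2356 and 1766 RPM in blood grafts and 1697 and 1820 RPM in spleen grafts at 24 h, against 805 and 777 RPM before transfer. The differences were 1.37 ± 0.20 in blood (limma adjusted p = 5.56e-05) and 1.15 ± 0.20 in spleen (adjusted p = 0.000539), and both held under every setting and with each library left out. At 36 h it had 2195 and 1830 RPM in blood and 1376 and 1300 RPM in spleen, and at 48 h 2582 and 3667 RPM in blood and 2140 and 1991 RPM in spleen. The 48 h libraries lay above the 36 h ones in each tissue, by 0.62 ± 0.20 in blood and 0.63 ± 0.20 in spleen, without passing (adjusted p = 0.11 and 0.0682).

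Cebpd passed as lower in 24 h grafts of both tissues than before transfer, and Cebpa and Cebpe in those of blood. Cebpd had 208 and 161 RPM in blood grafts and 183 and 223 RPM in spleen grafts at 24 h, against 419 and 379 RPM before transfer (-1.12 ± 0.26 and -0.98 ± 0.26, limma adjusted p = 0.00511 and 0.0242). The spleen call was lost with each of the 4 libraries left out, and the blood call without replicate A of the cells before transfer. Both were also lost in the fit of the compared groups alone. Cebpa had 80.2 and 85.9 RPM in blood grafts and 75.8 and 109 RPM in spleen grafts, against 206 and 194 RPM before transfer. Only the blood difference passed (-1.26 ± 0.41, adjusted p = 0.0456), and not with any library left out. Cebpe was listed at 0 in both blood grafts and at 10.1 and 6.14 RPM in spleen grafts, against 29.8 and 29.8 RPM before transfer, the blood difference passing at adjusted p = 0.000546. At 36 h it had 1.32 to 3.94 RPM in blood grafts and 0 to 1.75 RPM in spleen grafts, and at 48 h it was listed at 0 in all 4 grafts. Fewer genes were above 0 in the grafts, at 8278 and 8109 in blood and 10970 and 9354 in spleen at 24 h and 7734 to 8761 at 48 h, against 11719 and 11574 before transfer, and the part of depth in the values of 0 was not tested.

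These were 4 of 7 members called in blood grafts (13.3% of all genes) and 2 of 7 in spleen grafts (5.8%). The median of all genes was -0.53 in the blood comparison and moved to 0.03 with quantile normalization. Relative to the median of -0.53, Cebpb stood at 1.89, Cebpd at -0.59 and Cebpa at -0.73. In spleen the median was -0.21, and Cebpb stood at 1.36 and Cebpd at -0.76 relative to it. Red cell genes (10 genes) summed to 3681 to 7922 RPM in blood grafts at 24 h, against 25.9 to 43.8 RPM before transfer. B cell markers (10 genes) summed to 168 to 503 RPM in spleen grafts at 24 h, against 37.2 to 39.0 RPM before transfer. T and NK cell markers (11 genes) summed to 113 to 163 RPM in the same spleen grafts, against 2.63 to 6.57 RPM before transfer. The part of these cells in the differences was not tested. In blood, limma called 0 of 7 members at 36 h against 24 h and at 48 h against 36 h (3.21% and 1.96% of all genes), with 0 and 2 at an unadjusted p under 0.05. In spleen it called 0 of 7 at the same steps (0.579% and 4.89%), with 1 and 2 at an unadjusted p under 0.05. Ddit3 was uneven between blood graft libraries (122 and 14.9 RPM at 24 h, 6.13 and 53.5 RPM at 48 h).

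**Figure D4:**
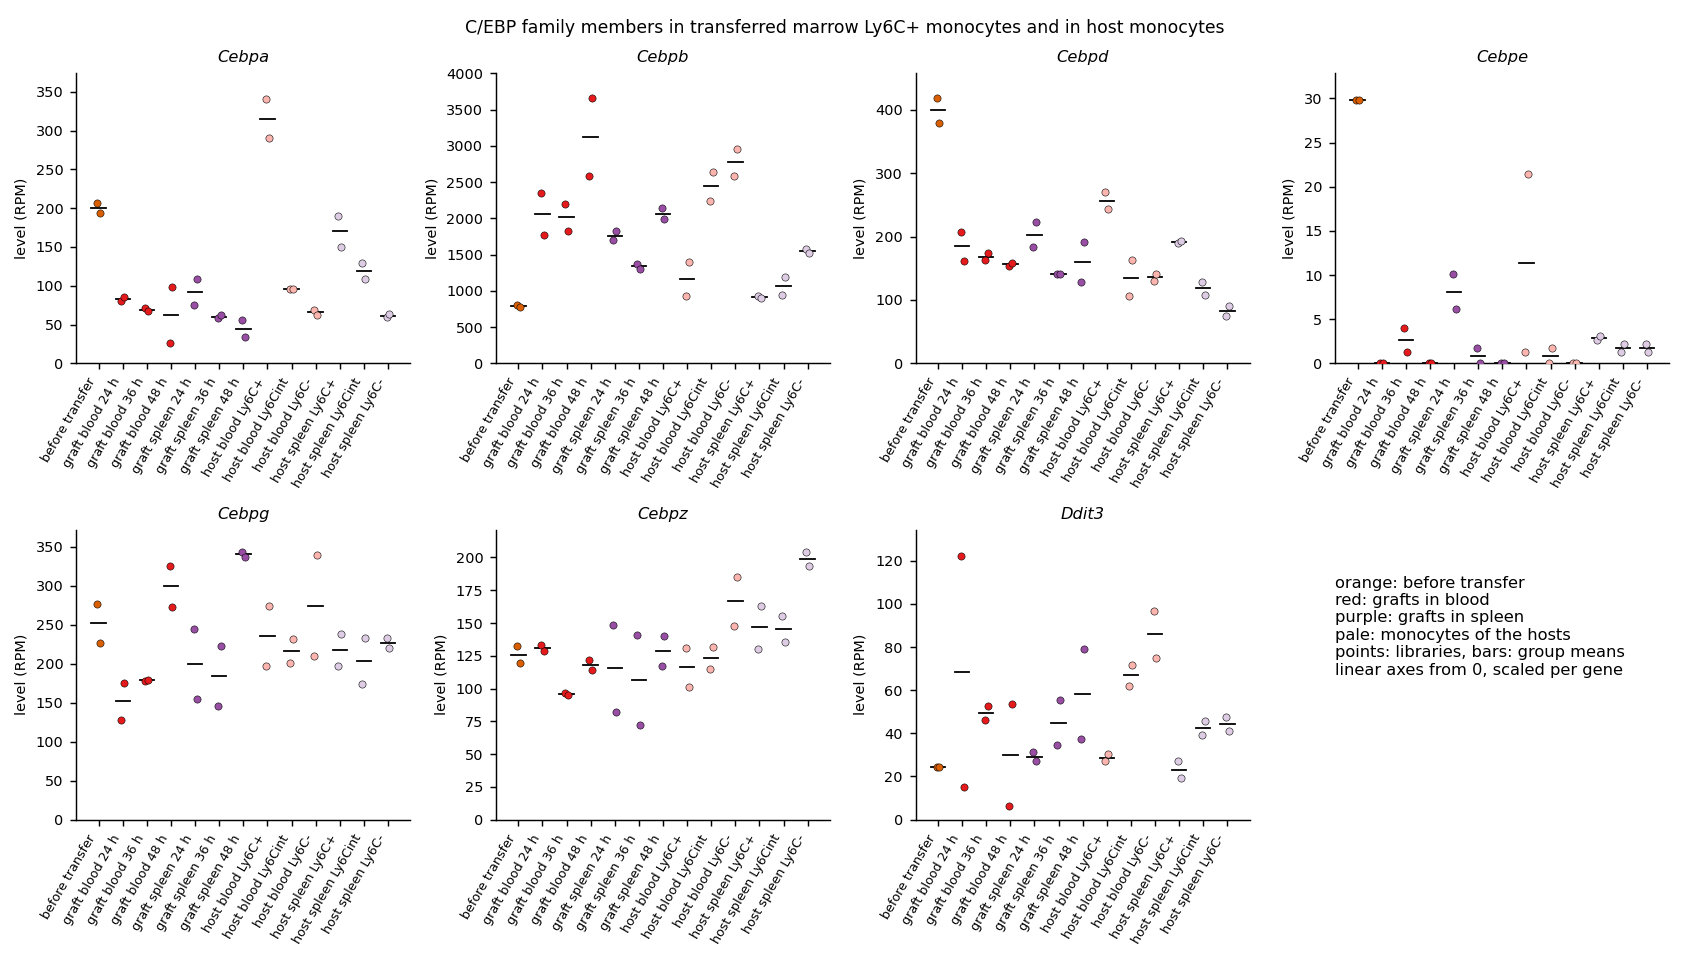
Level of each member in RPM on linear axes before transfer, in grafts from blood and spleen at 24, 36 and 48 h, and in the recipients' own monocytes at 24 h, with points for libraries and bars for group means (n = 2). Cebpb is higher and Cebpd lower in every graft library than before transfer, and Cebpe is listed at 0 or below 11 RPM in the grafts.

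The bZIP partners that C/EBP proteins can pair with moved in the blood grafts as well. Of 21 tested, 4 rose and 4 fell at 24 h, where 13.3% of all genes were called (list median 0.37, all genes -0.53). Among the rises were the AP-1 genes Jun (484 RPM in grafts and 42.7 RPM before transfer) and Fos (783 RPM in grafts and 92.7 RPM before transfer). In spleen grafts, where 5.8% of all genes were called, 1 of 21 rose, Junb, at 491 RPM in grafts and 262 RPM before transfer. Of the 11 granule and granulocyte targets tested, 6 fell and 1 rose in blood and 5 fell and none rose in spleen grafts, with Elane listed at 0 in the grafts of both tissues and at 94.9 RPM before transfer. Nr4a1 averaged 1009 RPM in blood grafts, 966 RPM in spleen grafts and 55.4 RPM before transfer. Trib1, a pseudokinase that promotes the degradation of C/EBPα, averaged 146 RPM in blood grafts, 44.5 RPM in spleen grafts and 9.86 RPM before transfer.

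The recipients' own monocytes, taken at 24 h, showed the family in host cells of both tissues. In blood, Cebpb had 2234 and 2646 RPM in Ly6Cint, against 928 and 1403 RPM in Ly6C+ monocytes (1.09 ± 0.20, limma adjusted p = 0.00333), and Cebpa 95.5 and 95.5 RPM in Ly6Cint, against 340.5 and 290.2 RPM in Ly6C+ monocytes (-1.71 ± 0.41, adjusted p = 0.0406). These were 2 of 7 members, where 1.16% of all genes were called. The Cebpb call was lost without Ly6Cint replicate B or Ly6C+ replicate A, and the Cebpa call without any 1 of the 4 libraries. In spleen limma called 0 of 7 members between Ly6Cint and Ly6C+ monocytes (0.562% of all genes), with 1 at an unadjusted p under 0.05, Cebpb having 939 and 1188 RPM in Ly6Cint and 925 and 905 RPM in Ly6C+ cells. The contrast of the spleen with the blood change was -0.88 ± 0.28 for Cebpb (adjusted p = 1). Limma called 0 of 7 members in that contrast (0.00827% of all genes), with 1 at an unadjusted p under 0.05, so a difference between tissues in this step was not shown. From Ly6Cint to Ly6C- monocytes limma called 0 of 7 members in blood (0.107% of all genes) and 0 of 7 in spleen (0.215%), with 0 and 2 at an unadjusted p under 0.05. In spleen Cebpa had 59.2 and 64.0 RPM in Ly6C-, against 130 and 109 RPM in Ly6Cint monocytes (-0.94 ± 0.41, adjusted p = 0.856).

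Between tissues Cebpb was lower in spleen than in blood among Ly6Cint monocytes, at 939 and 1188 RPM in spleen against 2234 and 2646 RPM in blood (-1.20 ± 0.20, limma adjusted p = 0.00994). It was the only member called, where 0.165% of all genes were, and the call was lost without either blood library or spleen replicate A. Red cell genes summed to 134 to 1005 RPM in these spleen libraries and 4137 to 9597 RPM in these blood libraries, B cell markers to 146 to 159 RPM in spleen and 47.8 to 76.2 RPM in blood, and platelet markers to 9.64 to 55.2 RPM in spleen and 54.3 to 147 RPM in blood. The part of these cells in the Cebpb difference was not tested. Ly6C- monocytes had 1573 and 1516 RPM in spleen and 2590 and 2954 RPM in blood (-0.84 ± 0.20, adjusted p = 0.103). Limma called 0 of 7 members between tissues in Ly6C- monocytes (0.19% of all genes) and 0 of 7 in Ly6C+ monocytes (0.0909%), with 2 and 1 at an unadjusted p under 0.05. Graft libraries of spleen were below those of blood at 36 h and 48 h without passing (-0.58 ± 0.20 at each time, adjusted p = 0.277 and 0.101), where 1.1% and 4.37% of all genes were called and 0 of 7 members, with 1 at an unadjusted p under 0.05 at each time. Cebpe was called in the 24 h grafts of spleen (10.1 and 6.14 RPM) against blood (both listed at 0), among 4.59% of all genes, at adjusted p = 0.0426, and the call was lost with any library left out.

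Over the 25 libraries of the 7-week table the genes with the most similar pattern to each member were listed as a description, since these libraries share groups and depth. Cebpb was followed most closely by Arhgef10l (Pearson r = 0.981), Nadk (0.977), the NAD kinase, and Xdh (0.968), xanthine dehydrogenase, among 7382 candidate genes. Ddit3 was followed by Itgb1 (0.954), the integrin beta 1 chain, Pglyrp1 (0.946) and Fcgr4 (0.945), the Fc receptor of Ly6C- monocytes. Cebpd was followed by Hp (0.92) and Mtus1 (0.905), Cebpe by Tfec (0.941) and Galns (0.925), and Cebpg by Osbpl9 (0.935) and Bag3 (0.917). Cebpa and Cebpz had weaker matches, at 0.857 for BC037034 and 0.882 for Arid1b. Within the family Cebpb and Cebpg had r = 0.893 and Cebpb and Ddit3 0.742, while Cebpe and Ddit3 had -0.741.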

How the data were processed

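RNA was measured by sequencing in 67 libraries, and 3 tables of 24421 genes each were used. In the 7-week and knockout tables the deposited values are a signal: counts per gene that the authors scaled to a common library total. Every value was a whole multiple of 1 read to within 0.1 read, and dividing by 10000000 reads, the total that HOMER uses by default and that is assumed here, gave RPM. The transfer table holds a score, the authors' scaled values rounded to whole numbers, which were divided to a total of 1000000, so its levels are not set against those of the other tables. Reads were processed with bcl2fastq, HISAT 0.1.5, SAMtools and HOMER on mm9, per the submitters' processing notes. Oligo-dT beads selected the RNA, per the labels' protocols.

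Genes with at least 2 RPM in as many libraries as the smallest group (3, 2 and 2) were kept, which left 11373, 11388 and 12096 genes. Each table was fitted once, over all its groups and without pairing, with limma 3.58.1 in R 4.3.3 (trend) on log2(RPM + 1), a scale that understates changes of low genes. P-values were Benjamini-Hochberg adjusted over the genes kept, separately in each comparison and not across comparisons. Shares of all genes were taken at the adjusted p only, so counts at an unadjusted p under 0.05 have no share beside them. The code was tested on simulated data. Alternatives were edgeR 4.0.16 on recovered reads, other scalings, filters and added values, the compared groups alone, a replicate block and each library left out.

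The members, lists and comparisons were chosen with earlier results of these data known, and 5 comparisons between tissues or of changes were added after the files were seen. All 7 members are named. Of each list up to 4 called genes with the smallest p could be named, and for each member the 3 genes of highest Pearson r in the 7-week table among genes with a group mean of at least 20 RPM. Promoters are from RefSeq on GRCm38.p6, a build other than that of the reads, and only their sequences were used.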

Additional observations from a re-analysis of the deposited data

Results flagged for a closer look

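In the 28 combinations of a member with a group of 4 libraries, 2 held a library far from the other 3, where chance flags about 1 in 20. Cebpb had 164.3 RPM in replicate 1 of 7-week cMoP, against 124 to 130 RPM in the others. Cebpd had 74.4 RPM in replicate 3 of 7-week marrow Ly6C- monocytes, against 105 to 111 RPM in the others. The calls of both genes in comparisons with these groups held without those libraries.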

How the results depend on the processing

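No called difference of a member reversed under any alternative. Of 47 called differences in 34 comparisons, 41 stayed called with 0.25 RPM added before the log, 39 with no filter, 40 after quantile normalization and 22 in the compared groups alone, and of 37 that could be rerun 32 stayed called when scaled to listed genes and 32 in edgeR. Leaving out libraries kept 190 of 262. The members called changed by more than 1.5 times as follows. In the 7-week blood Ly6Cint against Ly6C+ comparison (5) there were 3 with 0.25 RPM, 2 in edgeR, 1 in the groups alone, 2 with no filter, 3 after quantile normalization and 3 when scaled to listed genes. With 0.25 RPM, blood against marrow Ly6C+ monocytes had 1 in place of 3, and host blood Ly6Cint against Ly6C+ had 1 in place of 2. The blood-minus-marrow change had 1 (Ddit3) in edgeR and after quantile normalization in place of 0. Ly6Cint against Ly6C+ of wt mice had 1 in edgeR, after quantile normalization and when scaled to listed genes, in place of 0. Spleen against blood grafts at 24 h had 0 in place of 1 with no filter and after quantile normalization. Fitting the compared groups alone gave 5 in place of 3 for 7-week cMoP against MDP, 1 in place of 3 for blood against marrow Ly6C+, 0 in place of 1 for 7-week blood Ly6C- against Ly6Cint, 2 in place of 4 for 7-week blood Ly6C- against Ly6C+, 0 in place of 3 for ko against wt in both sorts, 0 in place of 1 for wt Ly6C- against Ly6Cint, 0 in place of 2 for 8-week cMoP against MDP, 1 in place of 2 for spleen grafts at 24 h, 0 in place of 2 for host blood Ly6Cint against Ly6C+, and 0 in place of 1 for host Ly6Cint spleen against blood and for grafts at 24 h spleen against blood. Cebpb in ko against wt was then -3.19 in Ly6C+ (limma adjusted p = 0.164) and -3.70 in Ly6Cint cells (adjusted p = 0.173). Fewer libraries estimate the spread in such fits, and the cause of these and the other changes was not tested. Shares of all genes called in the alternative fits of this section are not given. The member counts are thus not set against the loss of calls over all genes. Shares printed beside edgeR counts in the Results are those of limma.

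With 1 library left out the members called ranged from 1 to 3 for blood against marrow Ly6C+, 2 to 4 for 7-week blood Ly6Cint against Ly6C+, 0 to 1 for 7-week blood Ly6C- against Ly6Cint, 0 to 1 for the blood-minus-marrow change, 1 to 2 for ko against wt in Ly6C+ cells, 0 to 1 for wt Ly6Cint against Ly6C+, 0 to 1 for wt Ly6C- against Ly6Cint, 0 to 1 for 8-week cMoP against MDP, 2 to 3 for blood grafts at 24 h, 0 to 1 for blood grafts at 48 h against 36 h, 1 to 1 for spleen grafts at 24 h, 0 to 1 for host blood Ly6Cint against Ly6C+ and for host Ly6Cint spleen against blood, 0 to 0 for grafts at 24 h and 0 to 2 for grafts at 48 h, spleen against blood. Where this leaves 1 library in a group, it is assumed to vary like the other groups.

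Over all pairs of groups, the deviations of same-numbered libraries had median correlations of -0.00355, 0.00405 and 0.00718 in the 7-week, knockout and transfer tables, and the numbers were not taken to pair them. In the knockout table these pairs take in groups of different ages, and single ones ranged from -0.322 to 0.411. The medians thus cannot exclude that libraries of some groups are paired. A replicate block gave 3 in place of 5 for 7-week blood Ly6Cint against Ly6C+, 1 in place of 0 for wt Ly6Cint against Ly6C+, and kept 37 of 40 called differences. The ko and wt Ly6Cint numbers had a correlation of -0.283, and crossing them, chosen after seeing the data, left 3 members called. EdgeR and scaling to listed genes were not run for the transfer table, whose depth is only an estimate from rounded values.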
